A study of Mus musculus with 4 samples.

Results

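Mouse embryonic fibroblasts that carried Osr2 and were treated with the TGF-beta receptor inhibitor SB431542 were set against fibroblasts that carried a control transgene and received no inhibitor, and genes were sorted by whether they ended above, below or at the control level. The genes compared were those with at least 5 TPM, a read level scaled for gene length and library depth, in either library, which were 8424 of the 26809 table entries used. Of these, 26 reached 5 TPM in the Osr2 library alone and 2236 reached it in both. The gene just inside this minimum was 9130221H12Rik, at 5.00 TPM in its higher library, and the gene just outside was 4930412M03Rik, which fell short of it in the last decimals.

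All 4 groups of the study were fibroblasts of C57BL/6 background that carried the Sendai virus vector SeVdp(KOSMaB), which delivers the reprogramming factors Klf4, Pou5f1, Sox2 and Myc, and that were selected with 2 µg/mL blasticidin S and collected on day 5. The groups were Osr2 cells with 10 µM SB431542 (Osr2+SB), Osr2 cells without it (Osr2-SB), cells with Kusabira Orange, a fluorescent protein, in place of Osr2 and with 10 µM SB431542 (control+SB), and the same control cells without SB431542 (control-SB). The cells were a transduced, drug-selected population sampled early in reprogramming. Each group was 1 poly(A)-selected RNA-seq library, so no difference has a replicate check and no test was made. Osr2+SB and control-SB differ in both the transgene and the inhibitor, so the share of each in a difference cannot be told apart from this pair alone.

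Osr2 is a zinc-finger transcription factor known for its part in palate, tooth, limb and kidney development. TGF-beta ligands bind a receptor pair whose type I kinase phosphorylates Smad2 and Smad3, which then enter the nucleus with Smad4 and raise transcription of matrix, cytoskeletal and feedback genes. SB431542 blocks that kinase, and in reprogramming of fibroblasts TGF-beta signalling is known as a barrier to the loss of mesenchymal character.

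The Osr2+SB library was shallower than the others. Whole reads recovered from the TPM values gave 1632195 reads in Osr2+SB, 14212582 in Osr2-SB, 13152386 in control+SB and 18003952 in control-SB. Mitochondrially encoded genes took 15.3% of the Osr2+SB reads (Wilson 95% interval 15.3 to 15.4%), 2.46% in Osr2-SB and 0.705% in control+SB, against 1.76% in control-SB (1.76 to 1.77%). Listed TPM summed to 96191 in Osr2+SB and 346607 in control-SB. The median gene of the 8424 had 56 reads in Osr2+SB and 1101 in control-SB, and 280 genes had 0 reads in Osr2+SB, against 4 in control-SB. In each of the 17794 entries with control+SB reads the control-SB column held at least as many reads, and each entry of Osr2-SB likewise held at least as many as Osr2+SB. Between Osr2+SB and control-SB this did not hold, as 188 entries had fewer reads in control-SB. Each column without SB431542 may thus contain the reads of the matching column with it, which was not tested, and in that case the columns of a pair are not separate libraries. With the control+SB reads subtracted from control-SB, the median in Osr2+SB moved by more than its counting interval in 25 of 42 gene lists, and 13 lists had a median of 1 or more before and 6 after. With the Osr2+SB reads subtracted from Osr2-SB, the median in Osr2-SB moved likewise in 8 of the 42 lists, and 28 of the 8424 genes had no reads left in Osr2-SB. Values are as recovered unless a subtraction is named. Where reads were subtracted from Osr2-SB alone, it was set against control-SB with no reads subtracted. Of the 10 fibroblast markers, Lum was at 0 reads in Osr2+SB and the other 9 had reads there. The markers summed to 17973 reads in Osr2+SB and 109648 in control-SB, so markers of the labelled cell type were seen in both libraries. Most of the Osr2+SB reads were of Col1a1 (11655), while Dcn had 11 and Pdgfra 47.

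For these reasons each level was read relative to the median gene: the Osr2+SB TPM was multiplied by 8.71, which set the median ratio to control-SB at 1, and 1 TPM was added before taking log2. A gene is called above the control for a log2 difference of 1 or more, below it for -1 or less, and at the control level within 0.5. By this rule 1882 of 8424 genes (22.3%) were above control-SB, 1888 (22.4%) were below and 2533 (30.1%) were at its level, while 2121 (25.2%) fell in no class. After subtraction of the control+SB reads from control-SB, 1168 of the genes above and 1178 of those below kept that class. The lower and upper quartiles of the difference were -0.88 and 0.87, and the extremes were -8.27 and 6.63. With the requirement that the whole 95% counting interval of the read ratio lie past 2-fold, 1480 genes (17.6%) were above and 934 (11.1%) were below. In the TPM as deposited, with no scaling, 31 genes (0.368%) were above and 7828 (92.9%) below, since the median gene then stood at -2.49. Every fold below is therefore a ratio to the median gene, with a 95% interval that covers counting error only.

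**Figure D1:**
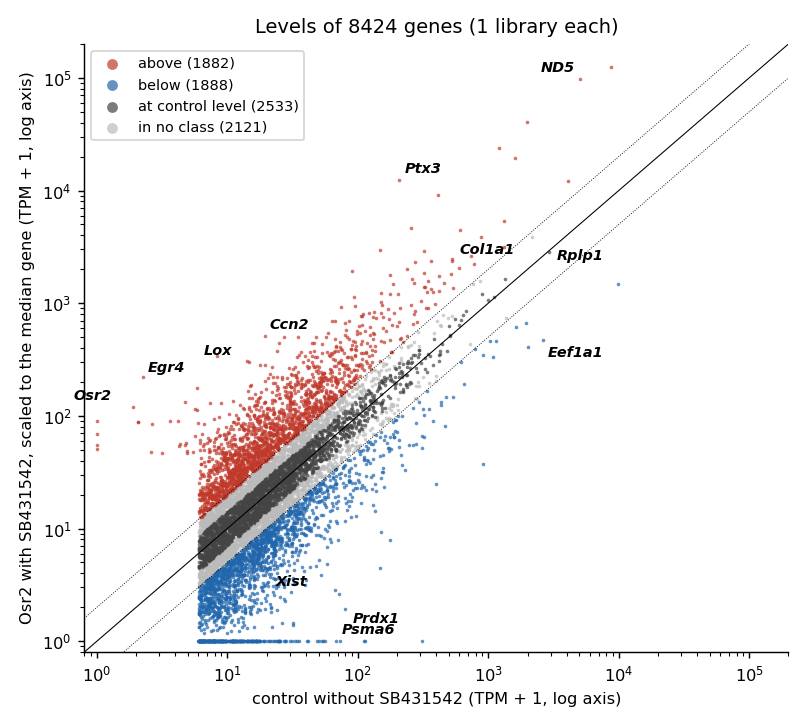
Levels of the 8424 genes in Osr2 cells with SB431542 (vertical axis, TPM scaled to the median gene plus 1, log axis) against control cells without it (horizontal axis, TPM plus 1, log axis). Each point is a gene, the solid line marks equal levels and the dotted lines a 2-fold difference; 1882 genes are above, 1888 below and 2533 at the control level, and the genes with 0 reads form the row at the bottom.

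Egr4, an immediate early transcription factor of the Egr family, stood highest. It had 25.4 TPM (342 reads) in Osr2+SB, 11.3 in Osr2-SB and 0.938 in control+SB, against 1.25 TPM (39 reads) in control-SB. It was 178-fold above control-SB relative to the median gene (128 to 255). The Osr2-SB column also held 342 reads of Egr4, so 0 reads are left there once those of Osr2+SB are subtracted. Osr2 itself, the transgene, had 13.7 TPM in Osr2+SB and 59.1 in Osr2-SB, against 0.764 and 0.890 TPM in control+SB and control-SB. Its relative log2 difference was 6.00 with SB431542 and 5.83 without, so the gene carried by the cells matched their labels. Ptx3, a secreted pattern-recognition protein of the pentraxin family, came after these.

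Ptx3 had 1420 TPM in Osr2+SB, 676 in Osr2-SB and 145 in control+SB, against 206 TPM in control-SB, and was 60.0-fold above (58.5 to 61.5). Of its 25432 reads in Osr2-SB, 1602 are left after subtraction of those of Osr2+SB, which puts Ptx3 in Osr2-SB at -1.21 in place of 2.56. Next came Ccn2, a matricellular protein and a classical TGF-beta and Yap target, which had 59.1 TPM in Osr2+SB, 210 in Osr2-SB and 8.58 in control+SB, against 18.3 TPM in control-SB (28.2-fold above, 25.7 to 31.0). After subtraction of the control+SB reads from control-SB the log2 differences in Osr2+SB were 5.71 for Egr4, 5.25 for Osr2, 4.54 for Ptx3 and 3.15 for Ccn2. The rest of the 15 largest lay between 4.20 and 4.47 on the log2 scale. They were the small nucleolar RNA Snord15a, the deubiquitinase Otud1, the immediate early gene Ier5, the complement subunit C1qb, the mitochondrial ND2, ND4 and ND5, the collagen crosslinking enzyme Lox, the IGF-binding protein Igfbp7, the inhibitory Smad Smad6 and the small Maf protein Maff. Of the 8424 genes, 121 were at 3 or more and 242 at -3 or less.

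Of the 4 vector factors, Klf4 alone was in a class by this rule. Klf4 had 362 TPM in Osr2+SB against 1322 in control-SB, a relative log2 difference of 1.25 that was 0.91, and so in no class, after subtraction of the control+SB reads. Sox2 stood at 0.85, Myc at 0.97 and Pou5f1 at -0.88, each between 0.5 and 1 in size. Pou5f1 had 4.19 TPM in Osr2+SB, 14.6 in Osr2-SB and 101 in control+SB, against 68.1 TPM in control-SB. Reads from the vector and from the cells' own loci cannot be told apart in these tables.

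The components of the TGF-beta pathway were mixed. Of 21 ligands, receptors, Smads and binding proteins measured, 10 were above control-SB, 2 below and 6 at its level, with a median of 0.71 against 0 over all genes, and of 0.36 after subtraction of the control+SB reads. Smad7, the inhibitory Smad that Smad3 induces as feedback, had 32.0 TPM in Osr2+SB, 39.4 in Osr2-SB and 14.5 in control+SB, against 16.8 TPM in control-SB. It was 16.6-fold above (15.2 to 18.2), and its log2 difference of 3.98 in Osr2+SB stands beside 2.02 in Osr2-SB. With the control+SB reads subtracted from control-SB, the value in Osr2+SB was 2.87. With the Osr2+SB reads subtracted from Osr2-SB, the value in Osr2-SB was 1.59. The latter is against control-SB with no reads subtracted, so these values have unlike baselines. Fst, the secreted activin antagonist follistatin, was at 3.16, and Inhba and Inhbb, which encode activin subunits, were at 2.05 and 2.07. Smad4, the shared partner Smad, was at 2.83 and Smad2 at 1.62, while Smad3 was at the control level at 0.26. The receptors Tgfbr1 and Tgfbr2 were at -0.70 and 0.32, and Zfyve9, an anchor of Smads at the receptor, was the lowest at -2.01 with 4 reads.

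TGF-beta and Smad3 target genes were above the plain control more often than below it. Of 37 on the list, 29 were measured, and 18 were above, 5 below and 6 at the control level. Their median was 1.57 in Osr2+SB, beside 2.68 in Osr2-SB and -0.33 in control+SB, each against control-SB. After subtraction of the control+SB reads from control-SB the median in Osr2+SB was 0.45, with 10 genes above and 5 below. Besides Ccn2 and Lox, the genes above included Ccn1, the matricellular relative of Ccn2, at 3.38, the AP-1 subunit Junb at 2.86, the cell cycle inhibitors Cdkn2b and Cdkn1a at 2.02 and 1.87, and Pmepa1, a negative regulator of the pathway, at 1.94. The ends of the list lay far apart, as the matricellular gene Postn, the lowest, was 25.6-fold below (8.74 to 124).

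Postn had 3 reads and 0.0551 TPM in Osr2+SB, against 182 TPM in Osr2-SB, 16.5 in control+SB and 12.3 TPM in control-SB, so it was the highest in the Osr2 library without the inhibitor and the lowest in the one with it. Plod2, a collagen lysyl hydroxylase, and Loxl2, a crosslinking oxidase, were also below, at -2.96 and -2.35. Skil, a Smad corepressor that TGF-beta induces, was at -1.52 and the proteoglycan Vcan at -1.80. Fn1, which encodes fibronectin, was at the control level at 0.08, with 8.67 TPM in Osr2+SB and 71.3 TPM in control-SB as deposited.

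Most collagen genes were above the control. Of 22 listed, 16 were measured, of which 13 were above control-SB, 0 below and 2 at its level, with a median of 2.06. The same genes had a median of 2.80 in Osr2-SB and -0.65 in control+SB, and of 0.79 in Osr2+SB after the subtraction of the control+SB reads, when 7 were above and 2 below. Col1a1, the main fibrillar collagen chain, had 284 TPM (11655 reads) in Osr2+SB, 4616 in Osr2-SB and 280 in control+SB, against 522 TPM (49986 reads) in control-SB. It was 4.74-fold above control-SB (4.64 to 4.83), and after the subtraction its log2 difference was 0.68 in place of 2.24. Col7a1, the anchoring fibril collagen, was the highest at 4.13, and Col4a5, a basement membrane chain, was at 3.16. Col12a1, a fibril-associated collagen, was the lowest at -0.42, beside 4.20 in Osr2-SB.

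The other matrix lists had fewer members above the control. Collagen processing and crosslinking enzymes had 8 of 18 above and 5 below, with a median of 0.92 that was 0.29 after the subtraction. Lox had 34.3 TPM in Osr2+SB, 607 in Osr2-SB and 7.35 in control+SB, against 13.8 TPM in control-SB (21.7-fold above, 19.9 to 23.8). Matrix proteases and their inhibitors had 8 of 13 above and 0 below (median 1.41, and 0.55 after subtraction), with Timp1, Timp2 and Mmp14, which inhibit or carry out matrix proteolysis, at 1.82, 1.81 and 1.46. Elastic fibre and microfibril genes were mainly at the control level, with 6 of 11 there, 3 above and 0 below. Their median was 0.19, and -0.31 after the subtraction, beside 2.85 in Osr2-SB, and Fbn1, the microfibril protein fibrillin, was at -0.43. Proteoglycans and matricellular proteins had 5 of 17 above, 4 below and 5 at the control level. Over all genes compared, 22.3% were above, 22.4% below and 30.1% at it, so this spread was near that of all genes. The list's median was 0.19, and -0.27 after the subtraction, beside 2.91 in Osr2-SB. Bgn and Dcn, the small proteoglycans biglycan and decorin, were at -2.01 and -1.35, while Tnc, the matricellular tenascin, was at 2.58.

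**Figure D2:**
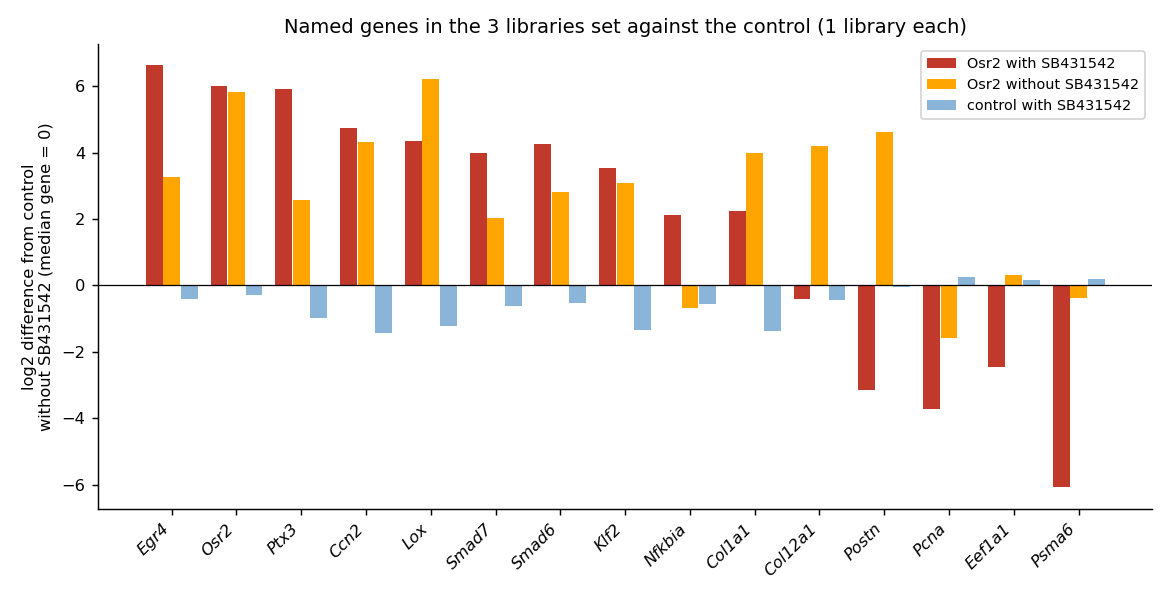
Log2 difference from control cells without SB431542, relative to the median gene, for 15 genes (vertical axis) in Osr2 cells with SB431542, Osr2 cells without it and control cells with it, 1 library each. Egr4, Osr2, Ptx3, Ccn2, Smad6, Smad7, Klf2 and Nfkbia have their highest bar in Osr2 cells with SB431542. Lox, Col1a1, Postn, Col12a1 and Eef1a1 have theirs in Osr2 cells without it. Postn, Col12a1, Nfkbia and Eef1a1 change side between the Osr2 libraries. No reads are subtracted.

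Contractile and smooth muscle genes had 8 of 14 above and 0 below, with a median of 1.27 that was 0.20 after the subtraction. Cald1 and Tpm1, regulators of actin filaments, were at 3.01 and 2.68, and Myh9, the non-muscle myosin heavy chain, was at 2.46. Acta2, the smooth muscle actin of myofibroblasts, had 8.73 TPM in Osr2+SB against 32.6 in control-SB, a relative log2 difference of 1.20. Flna, the actin crosslinker filamin A, was the lowest at -0.73. Mesenchymal genes had 6 of 16 above and 1 below, with a median of 0.63 that was 0.14 after the subtraction and -0.04 when libraries were scaled to the sum of nuclear genes. The mesenchymal transcription factors Twist1 and Snai1 were at 2.29 and 1.93 and the receptor kinase Axl at 2.58, whereas Snai2 was at -0.90 and Zeb1 at -0.51. S100a4, a calcium-binding protein of motile mesenchymal cells, had 0 reads in Osr2+SB and 154 in control-SB, which at a floor of 3 reads is at least 2.53-fold lower.

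The fibroblast markers as a list were spread on both sides of the control, much as all genes compared were. Of 15, 3 were above, 4 below and 4 at the control level, beside 22.3%, 22.4% and 30.1% of all genes. The median was 0.31 in Osr2+SB and 2.68 in Osr2-SB. In Osr2+SB it was -0.16 after the subtraction and -0.31 when scaled to the sum of nuclear genes. Pdgfra and Pdgfrb, the PDGF receptors of fibroblasts, were at 0.26 and 0.31 and the surface protein Thy1 at 0.72, while Ly6a, Cd44 and Dcn were between -1.04 and -1.35. In such mixed populations fewer cells of a type and less RNA per cell cannot be told apart. Summed over the 10 fibroblast markers, deposited TPM were 384 in Osr2+SB and 972 in control-SB, and relative to the median gene the Osr2+SB sum was 3349 TPM, so the direction rests on the scale.

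Most immediate early genes were above the control. Of 20 measured AP-1 and immediate early genes, 17 were above control-SB, 0 below and 1 at its level, with a median of 2.30 in Osr2+SB, 1.07 in Osr2-SB and -0.38 in control+SB. Egr4, among those above, reached 5 TPM in Osr2+SB alone and so had to be called above. The median in Osr2+SB was 1.67 after subtraction of the control+SB reads and 1.79 when differences were centred by GC content. That in Osr2-SB was 0.76 after subtraction of the Osr2+SB reads, and -0.09 when the control+SB reads were also subtracted from control-SB. Ier5 had 223 TPM in Osr2+SB, 166 in Osr2-SB and 45.6 in control+SB, against 88.9 TPM in control-SB. The AP-1 subunits Junb, Jund, Fos and Jun were at 2.86, 2.65, 2.18 and 1.57, Egr1 was at 2.67, and Srf, the factor that drives serum response genes, was at 2.04. Nr4a2, a nuclear receptor, was the lowest at 0.40 with 25 reads. Genes that MAP kinase signalling induces as its own feedback had 11 of 14 above and 1 below, with a median of 1.80 that was 1.25 after subtraction. Of these, Errfi1, an inhibitor of the EGF receptor, was at 3.22, Spry1, a Ras pathway inhibitor, at 3.02 and the phosphatase Dusp1 at 2.25, and the lowest was the transcription factor Etv5 at -1.32.

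NF-kB feedback genes had a median above the control in Osr2+SB and within 0.5 of it in the other libraries. Of 12 measured, 11 were above control-SB and 0 below, with a median of 1.94 in Osr2+SB, -0.25 in Osr2-SB and -0.36 in control+SB. In Osr2+SB it was 1.12 after subtraction of the control+SB reads and 1.44 when centred by GC content. In Osr2-SB it was -0.54 after subtraction of the Osr2+SB reads, and -1.10 when the control+SB reads were also subtracted from control-SB. Nfkbia, the inhibitor that NF-kB induces to stop itself, had 103 TPM (1042 reads) in Osr2+SB, 72.2 in Osr2-SB and 196 in control+SB, against 209 TPM (4899 reads) in control-SB, a relative log2 difference of 2.11 that was 1.08 after subtraction. Tnfaip3, the ubiquitin-editing inhibitor A20, was at 2.05, the adhesion molecule Icam1 at 2.30 and the NF-kB subunits Nfkb1, Relb and Nfkb2 at 2.27, 1.86 and 1.80. Birc3, an inhibitor of apoptosis, was the lowest at 0.68 and fell in no class. Chemokines and cytokines were mixed, with 5 of 10 above and 1 below. Cxcl2, a neutrophil chemokine, was at 3.63 and Csf1, the macrophage growth factor, at 2.54, while Ccl2, a monocyte chemokine, was 6.70-fold below (3.24 to 16.7).

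Promoters are shown for the highest protein-coding genes apart from Osr2 that have a single promoter in RefSeq, Egr4 and Ptx3, and for the most abundant such NF-kB feedback genes, Nfkbia and Icam1. Each is 250 bases before to 50 bases after the annotated start, in GRCm38.p6, read 5′ to 3′ on the gene's strand, with capitals for matches, on either strand, to an NF-kB site or to the TATA box letters TATAAA. They lie at chr6:85513540-85513839 on the minus strand, chr3:66219637-66219936 on the plus strand, chr12:55492598-55492897 on the minus strand and chr9:21015690-21015989 on the plus strand.
Egr4: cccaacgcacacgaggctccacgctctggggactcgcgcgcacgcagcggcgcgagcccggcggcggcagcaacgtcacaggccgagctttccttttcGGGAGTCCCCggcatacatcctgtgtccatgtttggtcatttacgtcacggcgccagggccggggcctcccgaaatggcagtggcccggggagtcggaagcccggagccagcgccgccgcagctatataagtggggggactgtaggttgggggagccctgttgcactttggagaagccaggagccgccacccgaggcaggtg
Ptx3: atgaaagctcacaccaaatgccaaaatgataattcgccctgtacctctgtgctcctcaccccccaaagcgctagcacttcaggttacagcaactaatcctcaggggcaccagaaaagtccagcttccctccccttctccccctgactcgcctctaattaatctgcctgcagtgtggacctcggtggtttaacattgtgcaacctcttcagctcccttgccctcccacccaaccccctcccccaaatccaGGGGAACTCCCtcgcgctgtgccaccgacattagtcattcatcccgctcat
Nfkbia: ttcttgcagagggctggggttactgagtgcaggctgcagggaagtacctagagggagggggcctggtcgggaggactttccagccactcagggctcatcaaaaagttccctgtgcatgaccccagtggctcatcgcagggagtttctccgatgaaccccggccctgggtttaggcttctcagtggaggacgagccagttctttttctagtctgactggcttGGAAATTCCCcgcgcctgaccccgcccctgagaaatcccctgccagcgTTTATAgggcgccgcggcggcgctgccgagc
Icam1: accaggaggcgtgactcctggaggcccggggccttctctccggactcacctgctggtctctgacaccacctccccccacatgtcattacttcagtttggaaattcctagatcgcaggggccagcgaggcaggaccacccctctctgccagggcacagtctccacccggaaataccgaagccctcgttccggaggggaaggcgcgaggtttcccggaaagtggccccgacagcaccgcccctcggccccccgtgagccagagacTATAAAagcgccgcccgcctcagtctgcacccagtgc
Counted from the annotated start as 0, an NF-kB match began at -152 in Egr4 and at -29 in Nfkbia. In Ptx3, 2 overlapping matches began at -1 and 0. Icam1 had a TATA box match in this window and no match to the NF-kB letters searched for. Sites that differ from those letters were not looked for, so Icam1 may hold such a site. The second capital run in Nfkbia is a match of the TATA box letters on the opposite strand, which began at 19. An NF-kB match was found on either strand in 4.51% of all 32851 promoters, in 5.84% of the 1198 genes above, in 3.55% of the 1183 genes below and in 4.94% of the 1598 at the control level, counting genes with 1 promoter. Over all 5336 compared genes with 1 promoter, the match was found in 4.89%. It was present in 5 of 15 immediate early genes and 4 of 7 NF-kB feedback genes, and in 0 of 13 TGF-beta targets. The NF-kB feedback genes were listed as genes that NF-kB induces, so a high share there follows from the choice of list. At 4.89% over the compared genes, few matches were due among 13 promoters. A CArG box, the site of Srf, was in 2.25% of the genes above, 1.27% of those below, 1.41% of the 5336 and 1.63% of all promoters. The cAMP response element TGACGTCA was in 3.67% of the genes above and 3.80% of those below, beside 3.75% of the 5336. For the AP-1 site TGACTCA these shares were 2.92%, 2.37% and 2.75%. A paired Smad box, GTCTAGAC, was in 3 promoters of genes above and 2 of genes below, and E2F letters, TTTGGCGC or TTTCGCGC, were in 20 and 32. TATAAA was in 6.51% of the genes above and 8.28% of those below, beside 6.80% of the 5336. These are matches of letters and not sites of binding.

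BMP, Wnt and IGF genes were above the control more often than below it. Of 14 BMP signals, antagonists and Id genes, 10 were above and 3 below, with a median of 1.82 that was 1.12 after subtraction of the control+SB reads. Smad6 and Nog, among those above, reached 5 TPM in Osr2+SB alone and so had to be called above. Smad6, the inhibitory Smad of the BMP branch, had 12.7 TPM in Osr2+SB, 22.2 in Osr2-SB and 4.20 in control+SB, against 4.81 TPM in control-SB (23.0-fold above, 19.2 to 27.7). The BMP target genes Id1, Id3 and Id4 were at 2.52, 2.71 and 2.87 and the antagonist Nog at 4.19, but Id2 had 0 reads against 313 in control-SB, at least 5.14-fold lower. Canonical Wnt targets had 6 of 10 above and 0 below (median 1.31, and 0.93 after subtraction), with the Wnt inhibitor Nkd2 at 2.85, the R-spondin receptor Lgr4 at 2.94 and Ccnd1, which encodes cyclin D1, at the control level at 0.39. Wnt ligands, receptors and inhibitors had 5 of 14 above and 1 below, and 1 above and 1 below after subtraction, and the receptors Fzd7 and Fzd5 marked the ends at 1.83 and -2.02. IGF axis genes had 5 of 9 above and 0 below, with a median of 1.57 that was 0.40 after subtraction. They were led by Igfbp7 with 339 TPM in Osr2+SB, 1129 in Osr2-SB and 81.2 in control+SB, against 146 TPM in control-SB.

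Of 25 craniofacial and limb patterning genes, 5 were measured and 20 were under the minimum. Of the 5, 4 were above, but 1 of these is the Osr2 transgene, which reached 5 TPM in the Osr2 library alone and so had to differ. The list's median of 2.45 was 1.20 after subtraction of the control+SB reads and 1.35 with a minimum of 1 TPM. Beside Osr2 these included the transcription factors Foxd1 and Shox2, at 2.62 and 2.45. Foxd1 had 47.9 TPM in Osr2+SB, 23.0 in Osr2-SB and 71.7 in control+SB, against 67.1 TPM in control-SB, and was -0.68 in Osr2-SB relative to the median gene, or -3.97 there after subtraction of the Osr2+SB reads. Osr1, the close relative of Osr2, was at -0.56 with 20 reads. The cartilage regulator Sox9 was at 3.12 and the tendon regulator Scx at 1.62, among 7 skeletal genes with 3 above and 1 below.

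Few genes of the pluripotent state were measured, and they lay on both sides of the control. Of 26 on the list 8 reached 5 TPM, of which 2 were above, 1 below and 2 at the control level. Over all genes compared, 22.3% were above, 22.4% below and 30.1% at it, so this split does not set these 8 genes apart. The Krüppel-like factors Klf2 and Klf5 were at 3.53 and 2.65, and Tdh, the threonine dehydrogenase of embryonic stem cells, was 2.61-fold below (1.52 to 4.93). The pluripotency-associated genes L1td1 and Nr0b1 were at 0.26 each, beside a list median of 0.40 in Osr2+SB and of -1.47 in Osr2-SB. After subtraction of the control+SB reads from control-SB the list median in Osr2+SB was 0.09. Of epithelial junction and keratin genes, 5 were measured with 0 above, 0 below and 3 at the control level. Cdh1, the epithelial cadherin whose gain marks the mesenchymal to epithelial transition, was under the minimum with 0.524 TPM in Osr2+SB and 4.03 TPM in control-SB. Tjp1, a tight junction scaffold, was at 0.39 and Cldn3, a claudin, at -0.61 with 4 reads.

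Proliferation genes lay below the control more often than above it, whereas 22.4% of all genes compared were below and 22.3% above. Of 38 replication and S-phase genes, 1 was above control-SB, 13 were below and 14 at its level, with a median of -0.52 beside -1.09 in Osr2-SB. Pcna, the sliding clamp of DNA polymerase, had 5 reads (0.333 TPM) in Osr2+SB, against 1783 reads (50.9 TPM) in control-SB, and was 17.6-fold below (7.51 to 54.1). The helicase subunits Mcm7 and Mcm6 were at -2.08 and -1.42, but Mcm3 was at 0.38, and Chaf1a, a chromatin assembly subunit, was above at 1.16. Of 38 mitosis genes 3 were above, 18 below and 8 at the control level (median -0.82, and -0.35 after subtraction). Kif4, a chromosome kinesin, had 0 reads against 909, at least 14.9-fold lower, and cyclin B genes Ccnb2 and Ccnb1 were at -3.22 and -1.97, whereas the spindle kinesin Kif11 was at 1.82 and Mki67, a marker of cycling cells, at -0.22. Replication-dependent histone genes had 3 of 20 above and 8 below, although close copies of these genes share reads and their transcripts largely lack poly(A) tails. Of 22 p53 targets and senescence genes 8 were above and 3 below, with the stress genes Gadd45b and Gadd45a at 2.43 and 2.39 and Mdm2, the p53 inhibitor, at 1.18.

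Mitochondrially encoded genes were all above and nuclear genes of the same organelle mostly were not. The 8 measured were between 2.02 and 4.38, with a median of 3.73, and 6 of the 8 were above after subtraction of the control+SB reads, with a median of 2.42. In Osr2-SB their median was 0.72, and -1.58 after subtraction of the Osr2+SB reads. It was -3.16 when the control+SB reads were also subtracted from control-SB. ND5, a subunit of complex I, had 11145 TPM in Osr2+SB, 7015 in Osr2-SB and 2547 in control+SB, against 5025 TPM in control-SB. ND6 lies on the opposite strand beside ND5, and since the strand setting of the counting is not given in the sources used here the reads of the pair may be mixed. Of 53 nuclear oxidative phosphorylation genes 2 were above, 21 below and 21 at the control level, with a median of -0.58. After subtraction of the control+SB reads from control-SB, 0 were above, 9 below and 26 at it, with a median of -0.39. Of all 8424 genes 1252 were then below. Cox6a1, a complex IV subunit, was at 1.73, and Cox7b, another, had 0 reads against 370, at least 6.07-fold lower.

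Genes of protein synthesis and breakdown were spread widely within each list. Of 75 cytosolic ribosomal protein genes 5 were above, 31 below and 28 at the control level, with a median of -0.50 and ends at 1.81 (Rpsa) and -4.18 (Rpl30). Rps4x had 28 reads in Osr2+SB against 9477 in control-SB and was 16.7-fold below (11.5 to 25.1). Eef1a1, the elongation factor with the most reads in its list, was 5.49-fold below (5.13 to 5.88), with 54.5 TPM in Osr2+SB against 2609 TPM in control-SB, while Eif6 and Eif3b, initiation factors, were at 2.40 and 2.04. Of 31 proteasome subunit genes 2 were above, 16 below and 4 at the control level, and their median of -1.05, which was -0.73 after subtraction, was the lowest of any list with at least 5 members. Psma6, a subunit of the core ring, had 0 reads against 1203 in control-SB, at least 19.7-fold lower, and Psmc3, an ATPase of the cap, was at 1.18.

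Genes of lipid synthesis, glycolysis and splicing were below the control more often than above it. Of 27 cholesterol and fatty acid synthesis genes 0 were above, 12 below and 9 at the control level (median -0.74), with Scd2, a fatty acid desaturase, 7.18-fold below (6.02 to 8.62) and Sqle, an enzyme of sterol synthesis, the highest at 0.95. Of 23 glycolysis and hypoxia genes 1 was above, the growth factor Vegfa at 1.42, and 8 were below. Ldha, the lactate dehydrogenase subunit, stood at 0.02 and Aldoa, the aldolase, at -1.68. Spliceosome and RNA-binding genes had 3 of 34 above and 12 below. The stress and chromatin lists had shares below the control near or under the 22.4% of all genes. Chaperones had 2 of 25 above and 6 below, with the inducible Hspa1b at 1.99 and the constitutive Hspa8 at -2.05. Chromatin regulators had 3 of 28 above and 5 below, with a median of 0.07 and the dioxygenase Tet2 lowest at -2.54. Of 23 unfolded protein response and ATF4 genes, 3 were above and 4 below, with a median of 0.19.

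**Figure D3:**
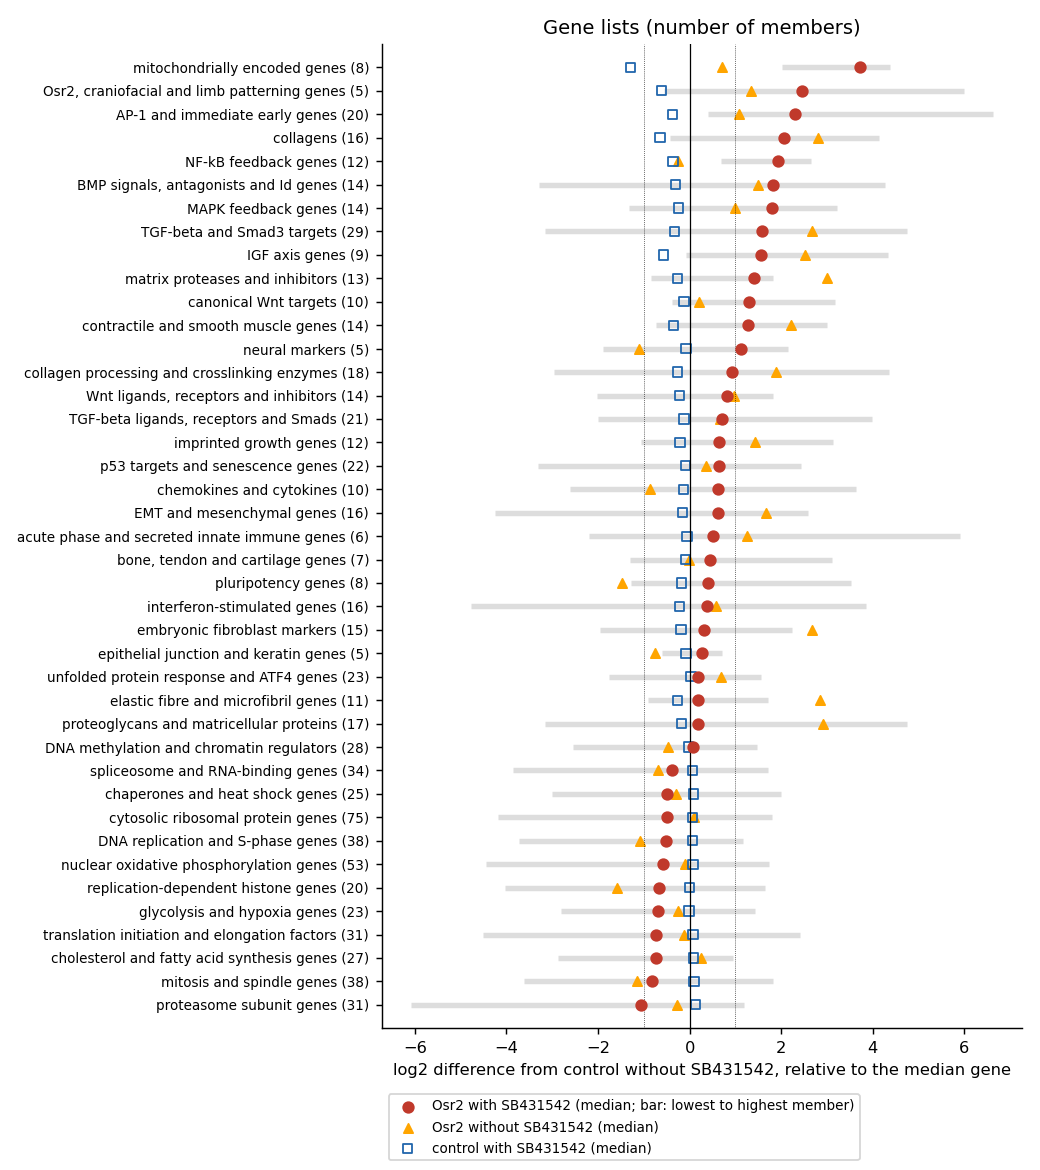
Median log2 difference from control cells without SB431542, relative to the median gene, for each gene list with at least 5 measured members (number in brackets). Filled circles are Osr2 cells with SB431542, with a bar from the lowest to the highest member, triangles are Osr2 cells without it and squares control cells with it; mitochondrially encoded, patterning and immediate early genes have the highest medians in Osr2 cells with SB431542 and proteasome genes the lowest, with no reads subtracted.

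The largest differences below the control were of genes with few or no reads in Osr2+SB. Of the 15 most negative, 14 had 0 reads there, and 10 of them were due fewer than 20 reads at the control level, most of these being small RNAs or unnamed loci. The protein-coding genes with known roles among the 15 were Psma6, Prdx1, Idh1, Mrps21 and Atox1. Prdx1, a peroxidase of the antioxidant system, had 2 reads against 3479 in control-SB and was 85.6-fold below (23.7 to 707). Idh1, the cytosolic isocitrate dehydrogenase, had 0 reads against 1392, at least 22.8-fold lower, and Atox1, a copper chaperone, 0 against 566, at least 9.29-fold lower. Among the 7037 genes for which at least 20 reads were due, 30 had 0 reads. In Osr2-SB and control+SB all 5 genes lay between -0.39 and 0.40 of control-SB.

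The 8 most abundant genes within 0.25 of the control were Rplp1, Rpl36, Rps2, Uchl1, Rps14, Ldha, Rpl7a and H2ac15. Rplp1, a stalk protein of the ribosome, had 326 TPM in Osr2+SB, 2157 in Osr2-SB and 4103 in control+SB, against 2923 TPM in control-SB, and its fold was 0.972 (0.912 to 1.04). Uchl1, a deubiquitinase of neurons and early embryos, was at 0.21 in Osr2+SB and at -2.55 in Osr2-SB, or -3.75 there after subtraction of the Osr2+SB reads. H2ac15, a histone, was likewise at -0.02 beside -1.89. A place at the control level rests on the scale, and with libraries scaled to the sum of nuclear genes 865 genes were above, 3213 below and 2261 at it.

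The difference moved with the base composition of the transcript more than with its length. When genes were put in 10 bins of equal size by GC content, the median of the lowest bin was -0.50 in Osr2+SB, with 18.1% above and 37.0% below, and that of the highest bin was 0.92, with 48.0% above and 5.45% below. In Osr2-SB the same bins were at -0.22 and 0.43, and in control+SB at 0.13 and -0.19. In 4 bins of gene length the medians ran only from -0.15 to 0.10, and in 4 bins of the control-SB level from -0.22 to 0.20. Collagens, with a median GC content of 57.2%, had a median difference of 1.21 after centring by GC content, against 2.06 before, and TGF-beta targets 1.31 against 1.57. Entries of snoRNAs and miRNAs had medians of -3.18 (37 entries) and -2.87 (81 entries), and reads in them cannot be told from those of host transcripts. The part of base composition, depth and RNA quality in these differences was not tested.

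**Figure D4:**
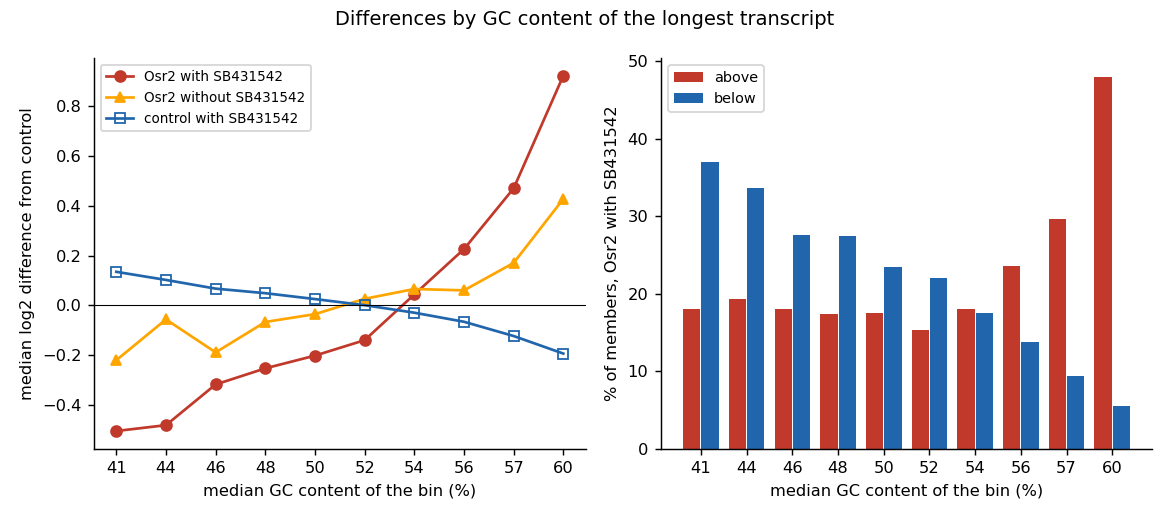
Genes in 10 bins by GC content of the longest annotated transcript (horizontal axis, median GC of the bin in %). The left panel gives the median log2 difference from control cells without SB431542 in the other 3 libraries, from -0.50 to 0.92 in Osr2 cells with SB431542, and the right panel gives the % of genes above and below in Osr2 cells with SB431542.

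Immune and other cell type genes were few. Of 16 interferon-stimulated genes 2 were above and 3 below. The list's median was 0.38, and -0.33 after subtraction of the control+SB reads from control-SB. The antiviral Ifit1 was at 3.86, with 57.5 TPM in Osr2+SB against 33.7 TPM in control-SB. B2m, the light chain of class I molecules, was at -4.78 with 1 read. Saa3, a serum amyloid, was at 2.79 and complement C3 at -2.20. Of 10 macrophage markers, 3 were among the genes compared, and C1qb, Cd68 and Lyz2 stood at 4.43, 0.17 and -2.12. C1qb reached the minimum in Osr2+SB alone and so had to be called above. The 10 macrophage markers summed to 16.8 TPM (131 reads) in Osr2+SB and 23.9 TPM (554 reads) in control-SB, with 1 marker at 0 reads in each. Relative to the median gene the Osr2+SB sum was 146 TPM. The 5 erythroid markers found had 0 reads in Osr2+SB and 109 in control-SB, and the 8 endothelial markers had 17 reads in Osr2+SB and 783 in control-SB. The read total of Osr2+SB was 9.07% of that of control-SB, so few erythroid reads were due. Hbb-y, a further erythroid gene, had 4 reads against 176 and stood at -1.03. Endothelial markers summed to 5.24 TPM in Osr2+SB relative to the median gene, against 13.6 TPM in control-SB. Neural markers summed to 43.0 TPM in Osr2+SB, or 375 TPM relative to the median gene, and to 255 TPM in control-SB. They had 3 of 5 above, with a median of 1.12 that was 0.48 after subtraction, with the axonal genes Nefl and Stmn2 at 2.14 and 1.20, and Tubb3, the neuronal tubulin, at -1.88. The part of such cells in the differences was not tested.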

How the data were processed

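RNA was poly(A)-selected and libraries were made with a directional kit, per the labels' protocols. Per the series' design text, the authors mapped NovaSeq reads to GRCm38.p6 with STAR 2.7.3a, counted them per gene with featureCounts 2.0.0 on the Ensembl 75 gene model, and deposited TPM values. Each library's own TPM column was used, and 4 further columns that match no sample were not. Of 27304 entries, 26 with date-like names or cells that are not numbers and 469 sharing 140 symbols were left out. Whole reads were recovered from the steps of the TPM values (18883 of 18883 entries above 0, within 0.002 of a whole number plus a small relative allowance) and used for depth, counting intervals and floors of 3 reads. The recovery and the size rule were tested on simulated data. In each library 44.6 to 47.3% of recovered read numbers above 0 were even. Differences were log2 of the scaled TPM plus 1, and no test was made.

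Members and the 47 gene lists were chosen with earlier results of these data known. Named genes were the 15 largest and 15 most negative differences with at least 20 reads in the higher library, the 8 most abundant within 0.25 of the control, the ends of each list, and 9 others (Osr2, Klf4, Pou5f1, Sox2, Myc, Smad7, Ccn2, Col1a1 and Cdh1). A further gene that the rule names is not reported here. Other genes described are members of the lists, picked after their values were seen. GC content was that of the longest transcript in GENCODE vM21, known for 97.8% of genes, and promoters came from RefSeq GRCm38.p6 by symbol, 5336 of the genes having 1. Where reads were subtracted, the recovered reads of the column with SB431542 were taken from those of the matching column without it, and TPM were rebuilt to the same sum. Intervals of read ratios are exact (Clopper-Pearson) and those of mitochondrial read shares are Wilson intervals. Both cover counting error only. Python 3.11.15, numpy 2.4.6, pandas 2.3.3 and scipy 1.17.1 were used.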

Additional observations from a re-analysis of the deposited data

How the results depend on the processing

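The counts of genes depend on the scale and on depth. In Osr2 cells with SB431542 against control cells without it, 1882 genes were above, 1888 below and 2533 at the control level. With the TPM as deposited 31 were above, 7828 below and 211 at it, and with scaling to the sum of nuclear genes 865 were above and 3213 below, the median gene then standing at -0.62. Scaling to genes of at least 50 TPM moved the median gene to -0.20, with 1517 above and 2260 below. After subtraction of the control reads with SB431542 from those without it, 1252 were below, and with a pseudocount of 5 there were 1204 below. At a minimum of 1 TPM 3100 were below, and at 20 TPM, with fewer genes compared, 747 were above, 768 below and 1165 at the level. With a difference of 2 in size and a range of 0.25, 571 were above, 702 below and 1279 at the level. By the counting interval past 2-fold 934 were below. Every other count, under these settings, a pseudocount of 0.5 and a 5 TPM minimum after scaling, lay within 1.5 times. The same held for 2 settings added after seeing the data, centring by GC content and a minimum of 20 reads due at the control level.

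The median of neural markers was -0.18 at a minimum of 20 TPM. As deposited, these called list medians had the other sign: TGF-beta and Smad3 targets (-1.48), collagens (-1.04), matrix proteases and inhibitors (-1.47), contractile and smooth muscle genes (-1.61), BMP signals, antagonists and Id genes (-1.08), canonical Wnt targets (-1.44), AP-1 and immediate early genes (-0.68), MAPK feedback genes (-1.24), NF-kB feedback genes (-1.08), IGF axis genes (-1.41), Osr2, craniofacial and limb patterning genes (-0.48), neural markers (-1.87). So did these called genes: Atf5 -1.50, Axl -0.52, Bcl3 -0.36, Bst2 -1.89, CYTB -1.10, Cald1 -0.070, Chaf1a -1.77, Col1a1 -0.88, Col1a2 -1.50, Cox6a1 -1.38, Csf1 -0.57, Ddit4 -1.98, Egr1 -0.42, Eif6 -0.71, Foxd1 -0.48, Fzd1 -1.01, Fzd7 -1.20, Gadd45a -0.63, Gadd45b -0.66, Gnas -0.60, H1f3 -1.45, Hnrnpu -1.38, Hspa1b -0.85, Icam1 -0.76, Irs2 -0.63, Kdm5b -1.81, Kdm6a -1.38, Kif11 -1.13, Klf4 -1.86, Klf5 -0.35, Ltbp2 -1.17, Ltbp3 -1.11, Nefl -0.85, P3h3 -0.36, Psmc3 -1.91, Rpsa -1.31, Saa3 -0.14, Spry1 -0.026, Stmn2 -1.87, Timp1 -1.27, Timp2 -1.27, Tpm2 -0.37, Twist1 -0.78, Vegfa -1.39. Under the alternatives other than TPM as deposited, 0 of the 155 named genes had a called value change sign. Subtraction of the control reads with SB431542 moved 112 of these and 25 of 42 list medians by more than the counting interval. Subtraction of the reads of Osr2 cells with SB431542 from those without it, added after seeing the data, moved 8 of 42 list medians in cells without it, most of all that of mitochondrially encoded genes, by 2.30.

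No paired analysis was possible because each group has 1 library, and leaving out a replicate leaves no library. With a median of 56 reads per gene in Osr2 cells with SB431542, differences of genes due fewer than 20 reads are not firmly set.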

Other observations

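Genes on the X chromosome stood lower than autosomal genes in Osr2 cells with SB431542. The 263 X-linked genes had a median log2 difference of -0.73 from control cells without SB431542, with 11.4% above and 41.4% below, against 0.03 over 8032 autosomal genes, with 22.7% above and 21.3% below. Medians of the 19 autosomes ran from -0.31 on chromosome 13 to 0.28 on chromosome 19. The X-linked median was -0.24 in Osr2 cells without SB431542 and 0.09 in control cells with it. Base composition moves with this, since 118 of the X-linked genes were in the lowest of 4 bins of GC content. From the lowest to the highest bin, X-linked medians were -1.05, -0.53, -0.61 and 0.50, the last over 17 genes, against autosomal medians of -0.39, -0.22, 0.02 and 0.62. Xist, the RNA that coats the inactive X chromosome, had 44 reads in Osr2 cells with SB431542 and 5317 in control cells without it, and was 5.95-fold lower (counting interval 4.43 to 8.20). The labels used here do not give the sex of the embryos, and the part of base composition in the lower X-linked values was not tested.

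Imprinted growth genes lay on both sides of the control, with 5 of 12 above and 1 below in Osr2 cells with SB431542. After subtraction of the control reads with SB431542, 2 were above and 0 below, and the median was 0.26 in place of 0.65. Dlk1, an inhibitor of adipogenesis, was at 3.13 with 19.6 TPM against 18.7 TPM in control cells without SB431542, and Gnas, H19 and Cdkn1c were between 1.64 and 2.33. After the subtraction Dlk1 was at 1.88 and Gnas at 1.45, while H19 and Cdkn1c were at the control level at 0.39 and 0.21. Peg10, a retrotransposon-derived gene of the placenta, was the lowest at -1.07, beside -3.12 in Osr2 cells without SB431542. Hand1, a trophoblast and heart transcription factor, had 50 reads against 1181 reads and stood at -0.21, beside -2.65 in Osr2 cells without SB431542.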
